A study of Mus musculus with 9 samples.

Results

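The chaperones and folding factors of the endoplasmic reticulum (ER) were examined in mouse nuclear-transfer embryonic stem cells (ntESCs) that differ in Terc, the gene for the RNA template of telomerase. ntESCs are pluripotent stem cells whose genome comes from a body cell, transferred into an enucleated egg that then grew to a blastocyst. The genes taken were the 10 ER folding genes Hspa5, Hsp90b1, Pdia4, Pdia6, Creld2, Sdf2l1, Dnajb9, Dnajc3, Herpud1 and Calr, with every probe that the platform annotation pairs with one of these symbols. It pairs 11 of the 25697 probes with 8 of the 10 genes. Creld2, Dnajb9 and Herpud1 have 2 probes each, and Pdia6 and Sdf2l1 were not analysed here because no probe was paired with them. The 9 arrays were 3 of Terc-/-, 3 of Terc+/- and 3 of Terc+/+ ntESCs, all on the C57BL/6 strain. The cells were kept with LIF, in KSR medium free of serum, on mouse embryonic fibroblasts (MEFs) treated with mitomycin-C, and the MEFs were taken out before RNA was made. The labels do not say whether the 3 arrays of a genotype are 3 lines or repeats of 1 line, and p-values then measure only the spread between these samples, which may be technical. Neither Terc itself nor a readout of telomere length was analysed here, so the genotypes rest on the labels.

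Proteins that enter the secretory pathway fold in the ER lumen with the help of the Hsp70 chaperone BiP (Hspa5), the Hsp90 protein Grp94 (Hsp90b1), lectin chaperones such as calreticulin (Calr) and protein disulfide isomerases. When unfolded protein builds up, the sensors Ire1, Perk and Atf6 start the unfolded protein response. Cleaved Atf6 and spliced Xbp1 raise the transcription of ER chaperones through the ER stress response element (ERSE) in their promoters, whereas Perk acts through phosphorylation of a translation factor and through Atf4 on amino acid and apoptosis genes such as Ddit3, which encodes CHOP. The 10 genes sit mainly on the chaperone side of this response.

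The rule did not use the ERSE, but it named ER chaperone genes, which this response is known to raise through that element. The share of these genes that hold it is therefore a description and not a test. It was searched on both strands, as CCAAT and CCACG with 9 free bases between them, in RefSeq promoter windows of GRCm38.p6 that run from 250 bases before to 50 bases after each annotated start. Promoter windows were present for 10 of 10 genes, and 6 of them held the motif: Hspa5, Hsp90b1 (at 2 places), Pdia6, Creld2, Dnajc3 and Calr. Of all 32851 windows 39, or 0.119%, held it. The related ERSE-II, ATTGG and CCACG with 1 free base between them, was found in Herpud1 and in 0.0365% of all windows. The sites are printed 5′ to 3′ on the gene's strand with 10 bases on each side, because they are the known docking sequences for the factors of this response. Capitals mark the motif, which reads in the reverse direction in Creld2, in Calr and at the Hsp90b1 site closer to the start.
Hspa5 at chr2:34772015-34772053 (+): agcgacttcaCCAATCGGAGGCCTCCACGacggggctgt
Hsp90b1 at chr10:86705628-86705666 (-): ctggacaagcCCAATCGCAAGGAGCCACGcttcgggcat
Hsp90b1 at chr10:86705523-86705561 (-): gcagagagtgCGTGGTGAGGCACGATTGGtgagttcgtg
Pdia6 at chr12:17266481-17266519 (+): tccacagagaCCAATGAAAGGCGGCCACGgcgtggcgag
Creld2 at chr15:88819510-88819548 (+): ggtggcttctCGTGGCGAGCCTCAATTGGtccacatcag
Dnajc3 at chr14:118937817-118937855 (+): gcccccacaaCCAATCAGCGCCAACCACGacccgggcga
Calr at chr8:84847065-84847103 (-): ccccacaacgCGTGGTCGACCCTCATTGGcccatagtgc
Herpud1 (ERSE-II) at chr8:94386367-94386397 (+): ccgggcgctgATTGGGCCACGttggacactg

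The motif began between 65 bases (Hspa5) and 212 bases (Hsp90b1, the farther site) before the start. The element TGACGTGG, bound by spliced Xbp1 and Atf6, was found in 0 of the 10 windows and in 0.676% of all windows, both strands searched. TGATGNAA, the core of the element that Atf4 and C/EBP factors bind, was found in Herpud1 as ccacggcgggTTGCATCAgcccgcaccc (chr8:94386307-94386334, + strand, reverse direction) and in 3.97% of all windows. A match is a description of these letters, and no match says only that they are absent from this window.

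Creld2 and Dnajc3, which both hold an ERSE, were the pair of genes whose levels diverged most from array to array, as described below. Their promoters are shown over the 250 bases before the start, with the ERSE in capitals.
Creld2 at chr15:88819396-88819645 (+): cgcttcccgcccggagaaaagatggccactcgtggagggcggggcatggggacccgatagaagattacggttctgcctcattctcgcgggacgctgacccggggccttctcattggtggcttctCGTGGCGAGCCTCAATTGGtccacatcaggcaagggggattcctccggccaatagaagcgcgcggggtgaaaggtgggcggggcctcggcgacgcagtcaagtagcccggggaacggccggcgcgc
Dnajc3 at chr14:118937682-118937931 (+): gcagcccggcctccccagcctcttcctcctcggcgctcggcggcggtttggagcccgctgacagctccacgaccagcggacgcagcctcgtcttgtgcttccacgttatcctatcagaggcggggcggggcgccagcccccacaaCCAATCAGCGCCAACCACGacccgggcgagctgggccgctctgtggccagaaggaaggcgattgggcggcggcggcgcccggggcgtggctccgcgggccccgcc

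All values are log2 values that the authors deposited, which are equal in distribution between arrays, with a median of 5.94 and a lowest value of 5.11. All 12 markers of pluripotent cells were measured, with means over the arrays between 8.43 (Fgf4) and 13.86 (Dppa5a). Lin28a was 1 of the 10 probes that passed in Terc-/- against Terc+/+ (0.80, limma adjusted p = 0.0480), while Klf4 gave -0.75 and Tdgf1 0.54. Of 32 fibroblast markers 29 were measured. Their array score, the mean deviation of the markers from their own means over the 9 arrays, ran from -0.22 to 1.16 in Terc-/-, from -0.88 to 0.82 in Terc+/- and from -1.20 to 0.96 in Terc+/+, and the genotypes overlapped. In Terc-/- against Terc+/+ 24 of 29 were higher in mean with a median of 0.41, with Lox at 1.25, Bgn at 1.09 and S100a4 at 1.05. That direction rests on Terc+/+ replicate 3: without it 11 of 29 were higher, with a median of -0.11, and without Terc-/- replicate 3 15 were, with a median of 0.099. In Terc+/- against Terc+/+ 6 were higher, with a median of -0.13, and 3 without Terc+/+ replicate 3, with a median of -0.78, but 25 were when Terc+/+ replicate 2 was left out, 20 for Terc+/- replicate 3 and 19 for Terc+/- replicate 2. In Terc-/- against Terc+/- 28 of 29 were higher, with a median of 0.55, and 24 to 29 when 1 array was left out, with medians from 0.13 to 1.14. Of the 29, 0 passed in any comparison. Of 10 macrophage and blood markers 7 were measured, with means from 5.61 (Ptprc) to 7.67 (Lyz2), and in Terc-/- against Terc+/+ Lyz2 gave -0.41, Cd14 -0.23 and Adgre1 -0.14. Of 15 primitive endoderm markers 14 were measured, with means from 5.47 (Ttr) to 9.96 (Col4a1). In the same comparison 9 were higher and 5 lower in mean, with a median of 0.051. Pdgfra gave 0.57, Col4a1 0.52 and Dab2 0.52, and the lowest value was -0.50. Without Terc+/+ replicate 3, 6 of the 14 were higher, with a median of -0.033. Pdgfra, which is also on the fibroblast list, then gave 0.26, Col4a1 -0.36 and Dab2 0.60. In a bulk sample, fewer cells of a type and less RNA per cell cannot be told apart. Terc+/+ replicate 3 had the lowest fibroblast score and the lowest Pou5f1 (11.13, against 12.14 and 12.70 in Terc+/+ replicates 1 and 2), and values of ER chaperone genes that move with it are given with and without it.

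No ER chaperone probe passed the threshold in any comparison of genotypes. The test was limma on all 25697 probes with all 9 arrays in 1 fit, two-sided, with a Benjamini-Hochberg adjusted p under 0.05 over all probes. In Terc-/- against Terc+/+ 0 of 11 probes passed, where 10 probes (0.0389%) of the whole table did, and the adjusted p-values of the 11 lay between 0.242 and 1.00. At an unadjusted p under 0.05, 3 of the 11 were lower and 1 was higher, against 5.55% lower and 4.78% higher over all probes; 2 of these 4 are probes of the same gene, Creld2. The mean was lower in Terc-/- for 7 of 11 probes, against 49.9% of all probes, and the median log2 fold change was -0.14, against 0.00026 over all probes. Taking the brightest probe of each gene, 4 of 8 genes were lower in mean. The interval plot shows that the genes went in both directions.

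**Figure D1:**
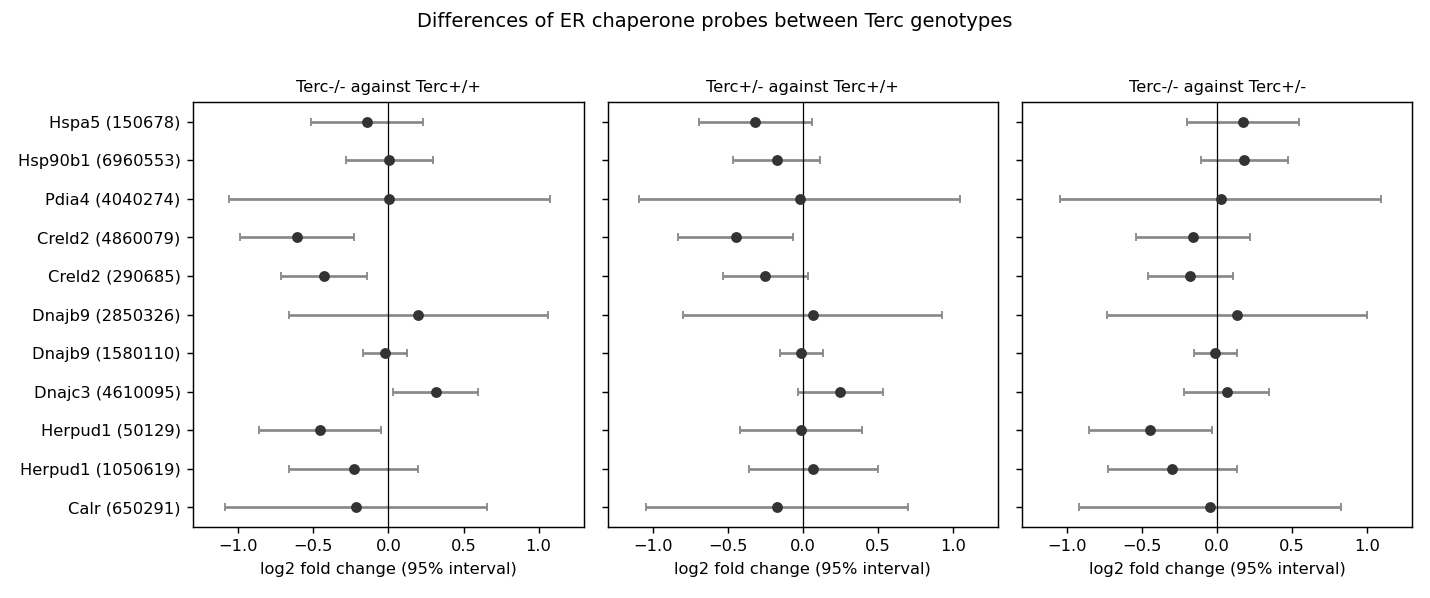
Log2 fold changes of the 11 ER chaperone probes (points) with 95% intervals from limma (bars) in 3 comparisons of Terc genotypes, 3 arrays per genotype, with gene and probe number at the left. The intervals of both Creld2 probes, of Dnajc3 and of the brighter Herpud1 probe leave out 0 in Terc-/- against Terc+/+, and no probe passed the adjusted threshold in any panel.

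Creld2, a secreted and ER-resident protein with disulfide isomerase activity that is induced by ER stress, had the smallest p-value among the members. Its brighter probe read 10.21, 10.38 and 10.36 in Terc-/-, 10.23, 10.76 and 10.45 in Terc+/- and 11.14, 11.02 and 10.63 in Terc+/+. All 3 Terc-/- arrays lay below all 3 Terc+/+ arrays, and the Terc+/- arrays overlapped both. The Terc-/- mean was 10.32 ± 0.094, the Terc+/- mean 10.48 ± 0.27 and the Terc+/+ mean 10.93 ± 0.27 (SD, n = 3 each), a log2 fold change of -0.61 (SE 0.17, 95% interval -0.99 to -0.23) in Terc-/- against Terc+/+, which is 1.52-fold lower, with a limma adjusted p of 0.242. The second probe read 9.95, 10.09 and 10.11 in Terc-/-, 9.98, 10.48 and 10.23 in Terc+/- and 10.57, 10.45 and 10.42 in Terc+/+. Its Terc-/- arrays too lay below all Terc+/+ arrays, and its log2 fold change was -0.43 (SE 0.12, limma adjusted p = 0.261). In Terc+/- against Terc+/+ the values were -0.45 (SE 0.17) and -0.25 (SE 0.12), with limma adjusted p-values of 0.506 and 0.664. The difference of the brighter probe between Terc-/- and Terc+/+ was -0.76 without Terc+/+ replicate 3, with a limma adjusted p of 0.0563. That was the largest size when 1 array was left out, and the smallest was -0.50. The limma adjusted p-values of these fits went up to 0.571.

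Herpud1 encodes an ER membrane protein of the degradation complex that is strongly induced by ER stress. Its brighter probe read 10.14, 9.47 and 9.66 in Terc-/-, 10.34, 10.11 and 10.16 in Terc+/- and 10.44, 10.11 and 10.10 in Terc+/+. Replicates 2 and 3 of Terc-/- were the lowest of the 9 arrays, and Terc-/- replicate 1 lay among the others, so the genotypes overlapped. The log2 fold change in Terc-/- was -0.46 (SE 0.18, limma adjusted p = 0.418) against Terc+/+ and -0.44 (SE 0.18, limma adjusted p = 1.00) against Terc+/-, whereas Terc+/- against Terc+/+ gave -0.013 (SE 0.18). The second probe gave -0.23 (SE 0.19), -0.30 (SE 0.19) and 0.068 (SE 0.19) in the same order. Both probes depended on single arrays. Against Terc+/+ the second probe gave -0.42 when Terc-/- replicate 1 was left out and -0.097 when Terc-/- replicate 2 was, and it gave -0.095 when Terc+/+ replicate 1 was left out and -0.35 when Terc+/+ replicate 2 was. Against Terc+/- it gave -0.49 when Terc-/- replicate 1 was left out and -0.17 when Terc-/- replicate 2 was. The brighter probe ran from -0.65 to -0.31 against Terc+/+ when 1 array was left out.

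Dnajc3 encodes p58IPK, a lumenal co-chaperone of BiP with a J domain. It read 7.84, 7.77 and 7.78 in Terc-/-, 7.89, 7.52 and 7.79 in Terc+/- and 7.27, 7.51 and 7.66 in Terc+/+. All 3 Terc-/- arrays lay above all 3 Terc+/+ arrays, whereas Terc+/- overlapped both. The log2 fold change was 0.31 (SE 0.12, 95% interval 0.031 to 0.60) in Terc-/- and 0.25 (SE 0.12) in Terc+/- against Terc+/+, with limma adjusted p-values of 0.426 and 0.662. When 1 array was left out, Terc-/- against Terc+/+ ran from 0.21 to 0.40, with limma adjusted p-values from 0.152 to 0.736. Terc+/- against Terc+/+ then ran from 0.15 to 0.36. Over all probes, 7.80% lay below Terc+/+ without overlap in Terc-/- and 6.99% lay above it. Among the 11 member probes 2 lay below (both of Creld2) and 1 above (Dnajc3).

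**Figure D2:**
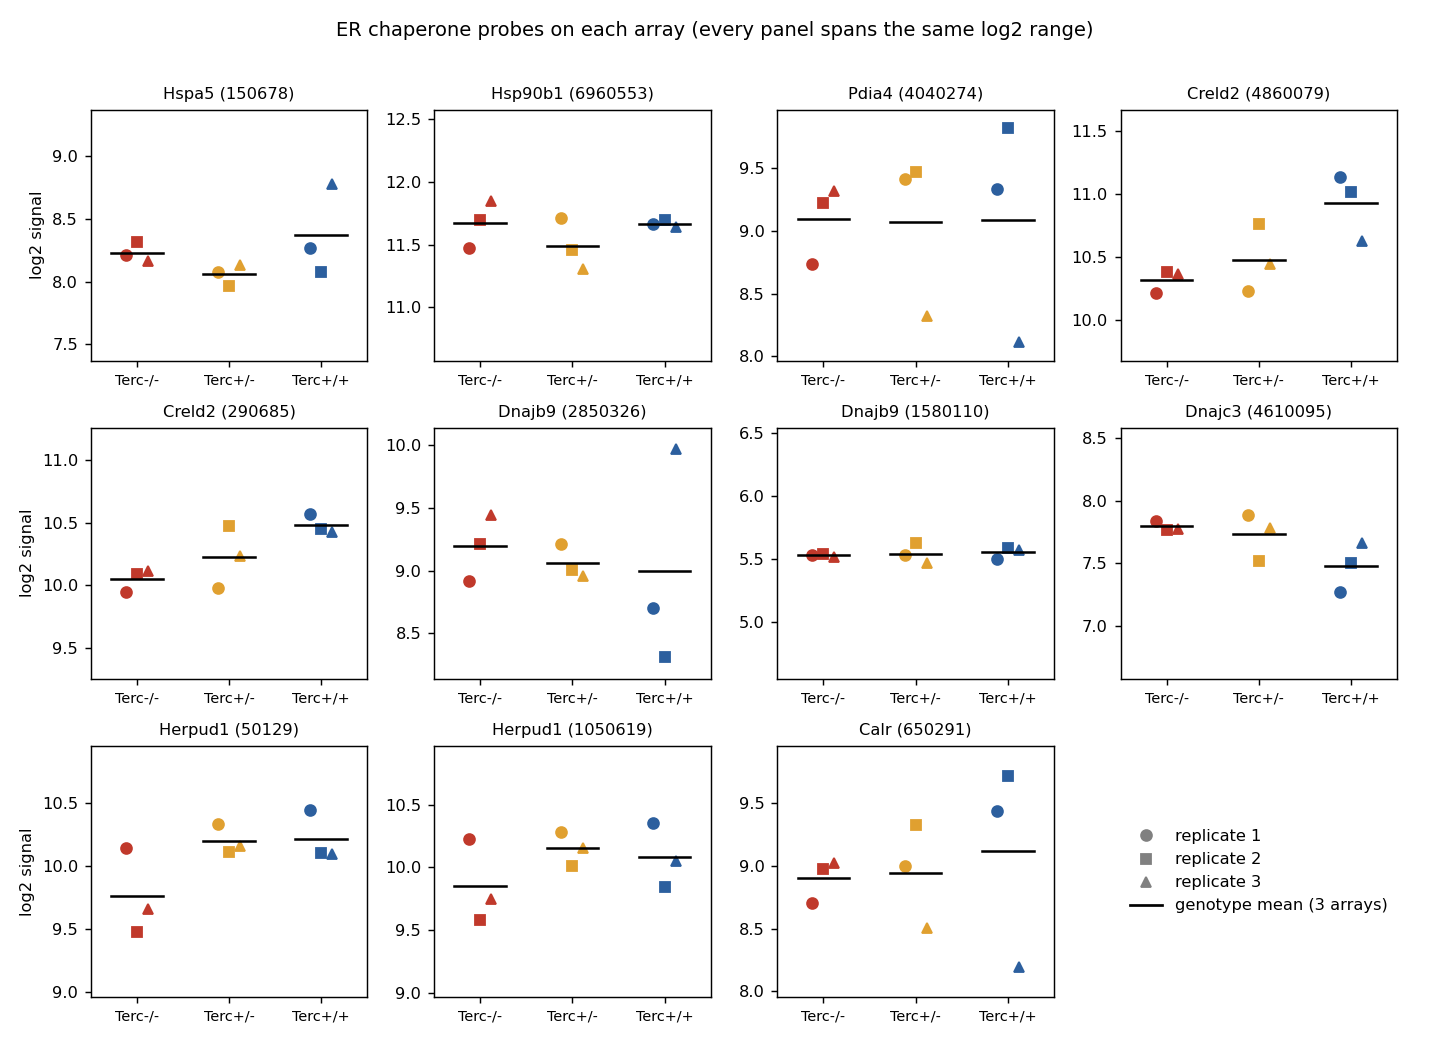
Log2 signal of each ER chaperone probe (panel, with the probe number) on each array, by genotype (columns) and replicate (marker shape), with the genotype mean as a bar and the same span of log2 units in every panel. The 3 Terc-/- points lie below the 3 Terc+/+ points for both Creld2 probes and above them for Dnajc3, and the Terc+/+ points of Pdia4, Dnajb9 (2850326) and Calr spread over more than 1.5 log2 units.

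Hspa5 (BiP) is the central Hsp70 chaperone of the ER and the usual gauge of the unfolded protein response. It read 8.21, 8.32 and 8.16 in Terc-/-, 8.08, 7.97 and 8.13 in Terc+/- and 8.27, 8.07 and 8.77 in Terc+/+. Terc+/+ replicate 3 was the highest of the 9 arrays, and all Terc-/- arrays lay above all Terc+/- arrays. The log2 fold change was -0.14 (SE 0.16, 95% interval -0.52 to 0.23) in Terc-/- and -0.32 (SE 0.16) in Terc+/- against Terc+/+, with limma adjusted p-values of 0.843 and 0.686. Without Terc+/+ replicate 3 these were 0.058 and -0.11. Terc-/- against Terc+/- gave 0.17 (SE 0.16), and 3.62% of all probes lay above Terc+/- without overlap in Terc-/-.

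Hsp90b1 (Grp94) is the Hsp90 of the ER lumen, which folds integrins and Toll-like receptors. Its 1.46-fold range over the arrays was the narrowest among the brightest probes of the members. Hsp90b1 read 11.47, 11.69 and 11.85 in Terc-/-, 11.71, 11.46 and 11.30 in Terc+/- and 11.66, 11.70 and 11.64 in Terc+/+. The pooled SD within genotypes was 0.16, at percentile 57.2 of all probes. The Terc+/+ arrays lay within the range of the others. The log2 fold change was 0.0049 (SE 0.13, 95% interval -0.28 to 0.29) in Terc-/- and -0.17 (SE 0.13, 95% interval -0.46 to 0.11) in Terc+/- against Terc+/+.

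Pdia4, a protein disulfide isomerase, varied most within a genotype. It read 8.74, 9.22 and 9.31 in Terc-/-, 9.41, 9.47 and 8.32 in Terc+/- and 9.33, 9.82 and 8.11 in Terc+/+, a 3.27-fold range over the arrays. Replicate 3 was the lowest array in both Terc+/- and Terc+/+, and the Terc-/- mean of 9.09 ± 0.31 stood beside a Terc+/- mean of 9.07 ± 0.65 and a Terc+/+ mean of 9.09 ± 0.88 (SD, n = 3 each). The 95% interval of the log2 fold change in Terc-/- against Terc+/+ ran from -1.06 to 1.07. Without Terc+/+ replicate 3 that fold change was -0.48, against 0.0049 with it, and in Terc+/- against Terc+/+ it was -0.51, against -0.019 with it. The pooled SD within genotypes was 0.66, at percentile 98.2 of all probes, many of which lie near the lowest signal and vary little.

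Calr, the calcium-binding lectin chaperone calreticulin, varied on the same arrays as Pdia4. It read 8.71, 8.97 and 9.02 in Terc-/-, 9.00, 9.33 and 8.51 in Terc+/- and 9.43, 9.72 and 8.20 in Terc+/+. Terc+/+ held both the highest and the lowest array, and the range was 2.88-fold. The log2 fold change was -0.22 (SE 0.38) in Terc-/- and -0.17 (SE 0.38) in Terc+/- against Terc+/+. Without Terc+/+ replicate 3 these were -0.68 and -0.63, with limma adjusted p-values of 0.195 and 0.283.

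Dnajb9 (ERdj4), a J-domain co-chaperone that represses Ire1 and is itself a target of spliced Xbp1, was widest in Terc+/+. Its brighter probe read 8.92, 9.21 and 9.44 in Terc-/-, 9.21, 9.01 and 8.96 in Terc+/- and 8.70, 8.31 and 9.97 in Terc+/+. Here Terc+/+ replicate 3 was the highest array and Terc+/+ replicate 2 the lowest. The log2 fold change in Terc-/- against Terc+/+ was 0.20 (SE 0.37), and 0.68 without Terc+/+ replicate 3 (limma adjusted p = 0.110). The second probe stayed between 5.47 and 5.62 on the 9 arrays, below the median of all values, and did not follow the first (r = -0.0020 over 9 arrays).

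In Terc+/- against Terc+/+ 0 of 11 member probes passed, as did 0 of all probes (0%); at an unadjusted p under 0.05, 1 of the 11 was lower (Creld2) and 0 were higher, against 3.94% lower and 4.40% higher over all probes. Of the 11, 8 were lower in mean, against 49.6% of all probes, and the median was -0.019. No probe of the 11 lay clear of Terc+/+ in Terc+/-, where 5.43% of all probes lay below it and 6.81% above it. The comparison shares its Terc+/+ arrays with that of Terc-/-. In Terc-/- against Terc+/- 0 of 11 passed, as did 0 of all probes (0%); at an unadjusted p under 0.05, 1 was lower (Herpud1) and 0 were higher, against 1.04% lower and 0.774% higher over all probes. Of the 11, 6 were lower in mean, against 52.6% of all probes, and the median was -0.012. The Terc-/- arrays lay above all Terc+/- arrays for 1 probe (Hspa5) and below them for 0, where 4.22% of all probes lay below. With array quality weights, which let arrays count unequally, 5 member probes passed in Terc-/- against Terc+/+, where 15.0% of all probes did: both Creld2 probes (-0.77 and -0.49), both Herpud1 probes (-0.76 and -0.56) and Dnajc3 (0.48). In Terc+/- against Terc+/+ the brighter Creld2 probe passed (-0.58), where 2.92% of all probes did. In that fit Terc+/+ replicate 1 had a weight of 6.74, against 0.64 and 0.21 for Terc+/+ replicates 2 and 3, so the Terc+/+ level came mainly from 1 array.

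The ER chaperone genes did not vary as 1 unit across the arrays. Over the 28 pairs of the 8 measured genes, each by its brightest probe, 13 pairs had a Pearson's r above 0, the median r was -0.028 and the range -0.97 to 0.94 over 9 arrays. These correlations are descriptions of 9 points that share arrays, normalization and genotype. The most opposed pair was Creld2 and Dnajc3 (r = -0.97, Spearman's rho = -0.93). Their r was -0.96 without the 2 arrays farthest from the median of Creld2 and -0.95 around the genotype means, and the second Creld2 probe gave -0.91. The most alike pair was Pdia4 and Calr (r = 0.94, rho = 0.92), with 0.87 without the 2 arrays farthest from the median of Pdia4 and 0.96 around the genotype means. The pairs of probes of 1 gene gave r = 0.94 for Creld2 and 0.93 for Herpud1.

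**Figure D3:**
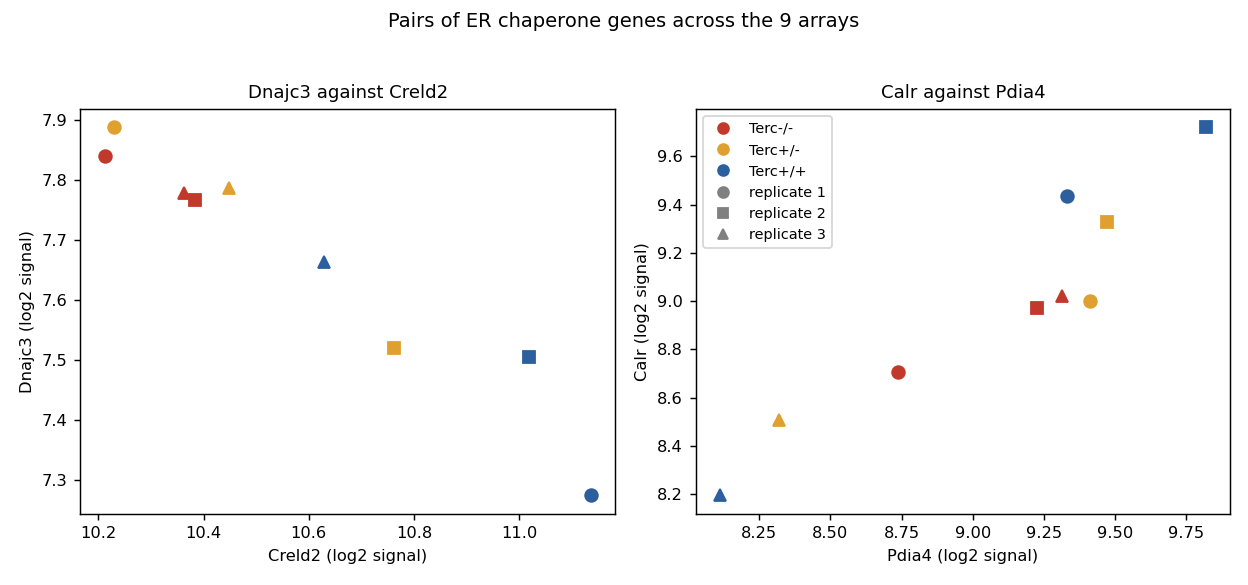
Log2 signal of Dnajc3 against Creld2 (left) and of Calr against Pdia4 (right), 1 point per array, coloured by genotype and shaped by replicate. Dnajc3 ran opposite to Creld2 over the 9 arrays (r = -0.97). The 3 Terc-/- arrays lay at low Creld2 and high Dnajc3, as did Terc+/- replicates 1 and 3. Calr ran with Pdia4 (r = 0.94) without separating the genotypes.

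Hspa5 ran with neither group throughout. Its r was 0.68 with Dnajb9, -0.66 with Pdia4 and -0.64 with Calr, but without the 2 arrays farthest from the median of Hspa5 these were 0.21, -0.16 and -0.10, so they rest on those arrays. Creld2 and Dnajc3 both hold an ERSE in the windows printed above, as do Hspa5, Hsp90b1 and Calr, and the log2 fold changes of these 5 in Terc-/- against Terc+/+ ran from -0.61 to 0.31. Outside the members, 11 measured genes held the motif; 4 were lower and 7 higher in mean in Terc-/- against Terc+/+, with a median of 0.036, a range of -0.26 (Derl3) to 0.50 (Syvn1) and 0 past the threshold.

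Some ER chaperone genes moved with the fibroblast score of the arrays. The score used 29 collagen, matrix and contractile genes, among them Serpinh1, an ER chaperone of collagen. Over 9 arrays, r with the score was 0.73 for Hsp90b1 (rho = 0.88, and r = 0.87 without the 2 farthest scores), 0.76 for Pdia4 (rho = 0.60, and r = 0.70 without those) and 0.61 for Calr (rho = 0.63, and r = 0.54 without those). Around the genotype means these were 0.75, 0.79 and 0.69, and Hspa5 ran the other way at -0.67, as did the brighter Dnajb9 probe at -0.41. For Creld2 r was -0.056, for Dnajc3 0.097 and for the brighter Herpud1 probe -0.20. For Hspa5 r was -0.46, and 0.021 without the 2 farthest scores, and for the brighter Dnajb9 probe it was -0.34. With the score as a covariate, the log2 fold changes in Terc-/- against Terc+/+ were -0.23 for Pdia4, -0.38 for Calr, -0.051 for Hsp90b1 and -0.075 for Hspa5, against 0.0049, -0.22, 0.0049 and -0.14 without it, and 0 of 11 probes passed. The part of fibroblast RNA in the levels of these genes was not tested beyond these values.

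**Figure D4:**
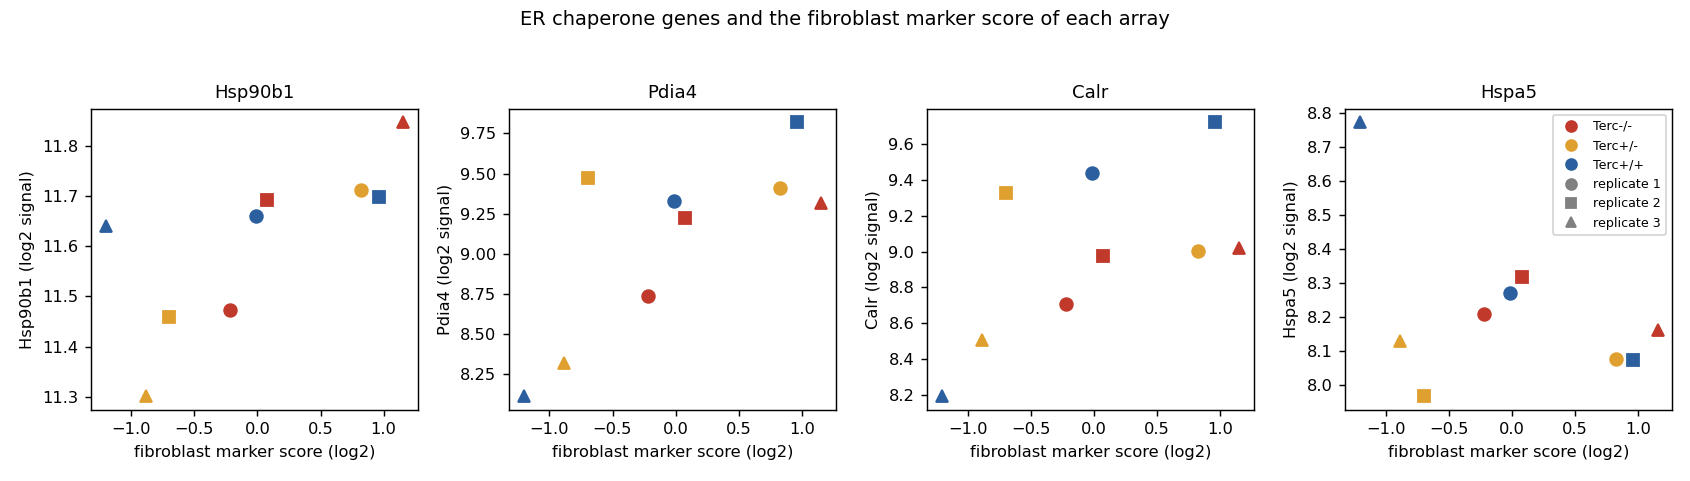
Log2 signal of Hsp90b1, Pdia4, Calr and Hspa5 against the fibroblast marker score of each array (mean deviation of 29 markers, log2), 1 point per array, coloured by genotype and shaped by replicate. Hsp90b1, Pdia4 and Calr were higher on arrays with a higher score (r = 0.73, 0.76 and 0.61), and the 3 genotypes lie over one another along the score.

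The other parts of the ER folding pathway were described from lists of named genes, each gene by its brightest probe. Of 25 other ER folding enzymes 21 were measured, and 0 passed in Terc-/- against Terc+/+. Of these, 13 were lower in mean, against 48.3% of all named genes, with a median of -0.087. Cnpy3, a co-chaperone of Grp94, gave -0.50 (SE 0.15). Calu, a calcium-binding ER protein, gave 0.49 (SE 0.59), and Sil1, the nucleotide exchange factor of BiP, -0.44 (SE 0.20). P4hb, the main disulfide isomerase, gave -0.18 (SE 0.12). Hyou1, the Grp170 exchange factor of BiP, gave 0.17 (SE 0.22), and Manf, a secreted ER stress protein, -0.25 (SE 0.17). The membrane lectin chaperone Canx gave -0.072 (SE 0.11) at a mean level of 5.55, below the median of all values. Without Terc+/+ replicate 3, 17 of the 21 were lower, with a median of -0.19, and Calu gave 0.025, Sil1 -0.23, Hyou1 -0.063, Manf -0.047 and Canx 0.041. Without Terc-/- replicate 1, 10 were lower, with a median of 0.0063.

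Of 21 genes of ER-associated degradation, the route by which misfolded proteins are returned to the cytosol, 18 were measured. In Terc-/- against Terc+/+ 0 passed, 11 were lower and 7 higher in mean, and the median was -0.051. Syvn1 (Hrd1), the ubiquitin ligase of the route, gave 0.50 (SE 0.16, limma adjusted p = 0.315). Its Terc-/- mean was 11.21 ± 0.11, its Terc+/- mean 11.11 ± 0.17 and its Terc+/+ mean 10.71 ± 0.32 (SD, n = 3 each), with all Terc-/- arrays above all Terc+/+ arrays. Edem1, a mannosidase-like lectin of the route, gave -0.50 (SE 0.20), and Herpud2, the paralogue of Herpud1, -0.39 (SE 0.11, limma adjusted p = 0.247). Syvn1 forms 1 complex with Sel1l and Herpud1, and within it the values stood at 0.50 for Syvn1, 0.34 (SE 0.14) for Sel1l and -0.46 for the brighter Herpud1 probe. Without Terc+/+ replicate 3 the median of the list was -0.093, with 12 of 18 lower, and Edem1 gave -0.31.

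Of 20 genes of translocation into the ER and signal peptide cleavage 19 were measured, with 0 past the threshold, a median of -0.0094 in Terc-/- against Terc+/+ and 10 of them lower in mean. The largest values were 0.49 (SE 0.19) for Spcs1 of the signal peptidase and 0.42 (SE 0.17) for Tram1, which helps chains enter the membrane. Next was 0.39 (SE 0.22) for Srp14 of the signal recognition particle. Without Terc+/+ replicate 3 Tram1 gave 0.21 and Srp14 0.17. As a set against another compartment, 19 of 21 cytosolic and mitochondrial chaperones were measured, with 0 past the threshold and a median of 0.036. Hspa1a, an inducible cytosolic Hsp70 whose near-identical copy Hspa1b may share the probe, gave -2.59 (SE 0.55, limma adjusted p = 0.154). Stip1 gave -0.49 (SE 0.34) and Tcp1 0.45 (SE 0.22), and without Terc+/+ replicate 3 Stip1 gave -0.90 and Tcp1 0.24.

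The sensors and regulators of the unfolded protein response had the lowest median of the ER lists. Of 18 genes 17 were measured; Atf6 was not analysed here. In Terc-/- against Terc+/+ 11 of 17 were lower in mean, the median was -0.27, and 0 passed. Ddit3 (CHOP) had a Terc-/- mean of 7.32 ± 0.23, a Terc+/- mean of 7.55 ± 0.16 and a Terc+/+ mean of 8.36 ± 0.36 (SD, n = 3 each), a log2 fold change of -1.05 (SE 0.19, limma adjusted p = 0.117) in Terc-/- and -0.81 (SE 0.19) in Terc+/- against Terc+/+. Atf4 gave -0.86 (SE 0.25, limma adjusted p = 0.263), and Chac1, a glutathione-degrading target of Atf4, -0.93 (SE 0.51). Ddit3, Atf4 and Chac1 belong to the Perk and Atf4 branch. The RNA of its sensor Perk (Eif2ak3) was the highest of the list, at 0.50 (SE 0.31), and its Terc-/- and Terc+/+ arrays overlapped. Without Terc+/+ replicate 3 Eif2ak3 gave 0.89, Ddit3 -1.23, Atf4 -0.98 and Chac1 -1.15. Without that array the median of the list was -0.52, with 12 of 17 lower. Xbp1, the factor of the Ire1 branch, had a Terc-/- mean of 10.84 ± 0.20, a Terc+/- mean of 10.92 ± 0.28 and a Terc+/+ mean of 10.73 ± 0.11 (SD, n = 3 each), a log2 fold change of 0.11 (SE 0.16) in Terc-/- against Terc+/+. The probe does not tell spliced from unspliced Xbp1 as far as the annotation states.

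**Figure D5:**
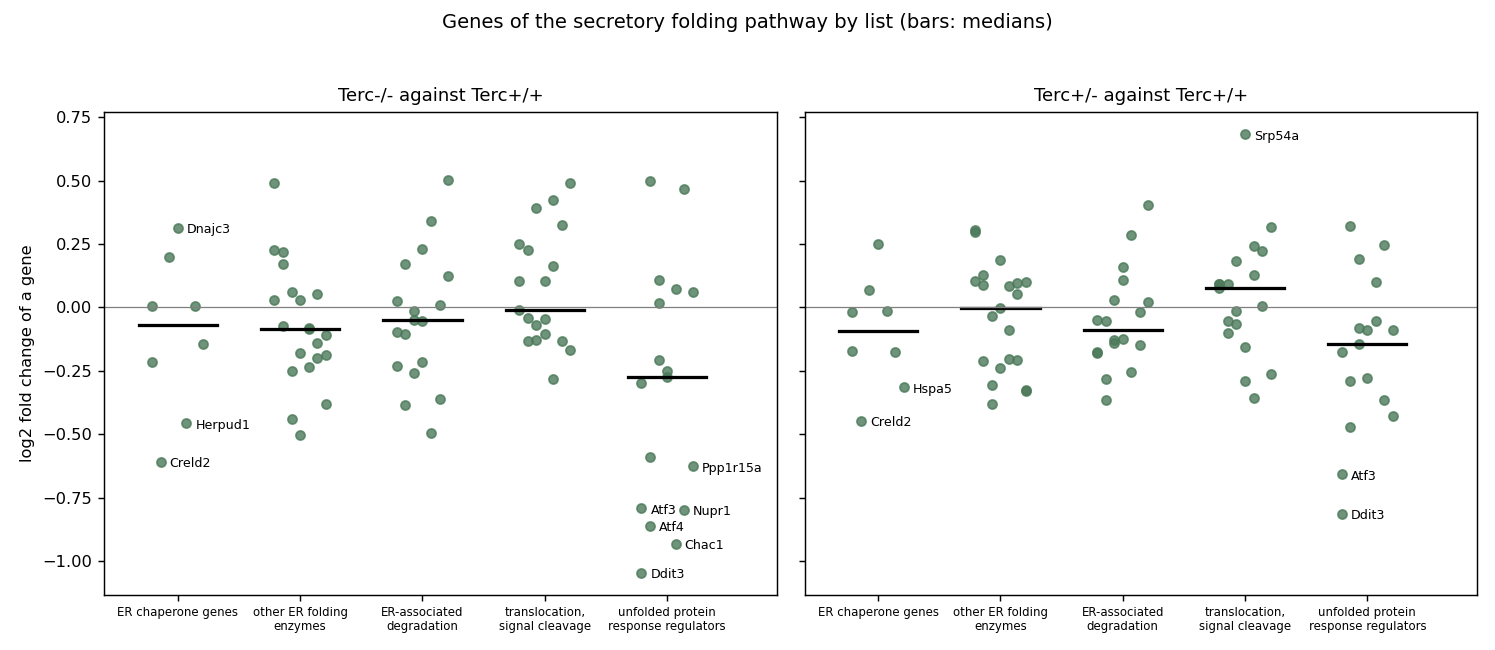
Log2 fold changes of genes (points) in Terc-/- against Terc+/+ (left) and Terc+/- against Terc+/+ (right) for the ER chaperone genes and 4 other lists of the pathway, with the median of a list as a bar. Names stand beside genes past 0.6 in size, and past 0.3 among the ER chaperone genes. The ER chaperone genes scatter on both sides of 0, while the regulators reach -1.05 (Ddit3) on the left; both panels share the Terc+/+ arrays.

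The genes whose pattern was most like that of the members were chosen by Pearson's r with the member score, the mean deviation of the 8 genes from their own means, among 5882 named genes with a mean of at least 7. They were Ube2b (r = 0.96), Riox2 (0.94), Cdc16 (0.94), Scp2 (0.92), Kdsr (0.91), Myh10 (0.90), Eif4b (0.90), Oxct1 (0.89), Mpv17 (0.89) and Pdha1 (0.88), over 9 arrays. These values are high by selection, and 0.70% of the named genes outside the members had an r above 0.8. None of the 10 passed the threshold in any comparison by limma, with values from -0.53 (Eif4b) to -0.099 (Riox2) in Terc-/- against Terc+/+. The member score itself had a Terc-/- mean of -0.041 ± 0.085, a Terc+/- mean of -0.031 ± 0.16 and a Terc+/+ mean of 0.072 ± 0.085 (SD, n = 3 each), with the arrays of Terc-/- and Terc+/+ overlapping. Its r with the fibroblast score was 0.57, and 0.74 around the genotype means. Since the 8 genes did not vary as 1 unit, likeness to this score is likeness to their mean, not to a pattern that each of them had.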

How the data were processed

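Biotin-labelled cRNA of 9 ntESC samples was read on bead arrays. The values used are log2 values in the table that the authors deposited. Their unit was read from the values, and which software and background correction made them is not given in the sources used here. Of another deposited table, the 18 columns of raw signals and detection p-values are named by chip and position (8 arrays on 1 chip, 1 on another); they match no sample label and were not used.

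Of 25697 probes, 23141 had 1 gene symbol in the platform annotation, 0 several and 2556 none; 23141 matched RefSeq by Entrez identifier, which changed 0 symbols. A linear model of 3 genotypes was fitted to all probes, without a filter, by lmFit and eBayes of limma 3.58.1 (R 4.3.3), with 6 residual degrees of freedom, and was tested on simulated data. In Terc-/- against Terc+/+ of the simulated data, 42.9% of 98 probes changed by 1 log2 unit were recovered. Of 102 changed by 2 log2 units, 82.4% were. The simulated noise was independent between probes, without swings shared by many probes, and changed probes were drawn among the brighter ones. Changes below 1 log2 unit were not simulated, so these shares do not describe recovery of smaller differences such as those of the members. With 3 arrays per genotype, the median of the standard errors was 0.11 on the log2 scale over all probes. Those of the member probes ran from 0.063 (second Dnajb9 probe) to 0.46 (Pdia4), so a member that did not pass may still differ.

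The members and lists were chosen with earlier results of these data known. All member probes are named; from each other list, each gene by its brightest probe, the 3 largest differences in Terc-/- against Terc+/+ are named, with Xbp1, Atf4, Atf6, Ddit3, Hyou1, Manf, Canx and P4hb, and Sel1l, Eif2ak3, Serpinh1, Derl3, Pou5f1 and the lowest and highest genes of a marker list were added after their values were seen. Alternatives were the arrays of 2 genotypes only, trend and robust variance, array quality weights, cyclic loess, a second quantile normalization, a mean above 6, 1 probe per gene, a replicate block, the fibroblast score as a covariate and leaving out each array. Leaving out arrays for the gene lists, as differences of genotype means, was added after seeing the data.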

Additional observations from a re-analysis of the deposited data

How the results depend on the processing

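Under all 18 alternatives 0 member probes passed in Terc-/- against Terc+/-, and under all but array quality weights 0 passed in the comparisons with Terc+/+. With those weights 5 passed in Terc-/- and 1 in Terc+/-, beside 3845 and 751 of all probes, and the member median in Terc+/- against Terc+/+ was -0.22. Over all probes, the 10 calls of Terc-/- against Terc+/+ became 0 under cyclic loess, under a mean above 6, under trend and robust variance and when the arrays of the third genotype were left out, and 167 with the fibroblast score as a covariate, which gave 264 in Terc+/- against Terc+/+ and a member median of -0.15 in Terc-/- against Terc+/-; the cause was not tested. Leaving out 1 array gave 0 to 367 calls in Terc-/- against Terc+/+ (367 without Terc+/+ replicate 3, 4 without Terc+/- replicate 1) and 0 to 28 in Terc+/- against Terc+/+ (28 without Terc+/+ replicate 3). The member medians then ran from -0.25 (without Terc+/+ replicate 3) to -0.057 (without Terc+/+ replicate 1) in Terc-/- and from -0.16 to 0.027 in Terc+/-, each against Terc+/+, and from -0.18 to 0.041 in Terc-/- against Terc+/-.

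The labels do not say whether same-numbered arrays were paired, and the main fit took them as unpaired. Deviations of same-numbered arrays correlated between -0.60 and 0.45 across probes, which cannot decide it, because swings shared by many probes enter these values. With the replicate block, 0 probes passed in Terc-/- against Terc+/+, 0 of them members.

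The sign of an uncalled member difference turned in 39 of 582 cases, and that of Creld2 in none. Array quality weights gave -0.20 for Pdia4 and 0.021 for the second Dnajb9 probe in Terc-/- against Terc+/+, and 0.041 for that probe and -0.18 for the second Herpud1 probe in Terc+/- against Terc+/+. Cyclic loess gave -0.016 for Hsp90b1 in Terc-/- against Terc+/+. The fibroblast score as a covariate gave -0.051 for Hsp90b1, and for Pdia4 -0.23, 0.074 and -0.31 in the 3 comparisons. Without 1 array, Terc-/- against Terc+/+ ran from -0.29 to 0.058 for Hspa5, -0.084 to 0.10 for Hsp90b1, -0.48 to 0.37 for Pdia4, -0.14 to 0.68 for Dnajb9 and -0.68 to 0.085 for Calr. Terc+/- against Terc+/+ ran from -0.51 to 0.35 for Pdia4, -0.27 to 0.55 and -0.052 to 0.027 for the Dnajb9 probes, -0.081 to 0.10 and -0.050 to 0.20 for the Herpud1 probes and -0.63 to 0.13 for Calr. Terc-/- against Terc+/- ran from -0.35 to 0.23 for Pdia4, -0.050 to 0.029 for the second Dnajb9 probe, -0.042 to 0.14 for Dnajc3 and -0.26 to 0.15 for Calr. A mean above 6 left the second Dnajb9 probe without a value. Signal over background could not be weighed, because detection p-values were not used here.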
